A study of Mus musculus with 2 samples.

Results

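A set of 8 genes for neutrophil granule proteins and calprotectin was followed in irradiated mouse lung: Elane, Prtn3, Mpo, Ngp, Camp, Lcn2, S100a8 and S100a9. They were taken as the rows of the deposited table that carry 1 of these symbols alone, and each of the 8 members had 1 row, out of 19105 genes with a single symbol. They were selected on the difference between the irradiated and the nonirradiated array itself, so every difference given for them is a description, with no test.

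The irradiated group was lung of male C57BL/6 mice, an inbred strain that develops lung scarring after chest exposure, whose thorax had received a single dose of gamma rays at 0.81 Gy/min at 7 weeks of age, with lungs taken 25 weeks later and tested in the study for alpha-smooth muscle actin protein and by tissue staining. The nonirradiated group was lung of male C57BL/6 negative control mice, labelled with the same 25 weeks. The total dose and the number of mice behind each array are not given in the sources used here, and the treatment text is the same for both samples, so the groups were read from the sample titles. Each group was measured on 1 whole-transcript Affymetrix array from 300 ng of total RNA, which leaves no replicate error and no test. Defining lung markers were bright in both arrays. Ager, an alveolar type 1 cell gene, read 12.48 in the irradiated and 12.76 in the nonirradiated array on the log2 scale, and the club cell gene Scgb1a1 read 13.42 and 13.41.

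Neutrophils make their granule proteins in sequence while they mature in the bone marrow. Azurophil (primary) granules are filled at the promyelocyte stage with the serine proteases neutrophil elastase (Elane) and proteinase 3 (Prtn3) and with myeloperoxidase (Mpo), which turns hydrogen peroxide into hypochlorous acid. Specific (secondary) granules follow at the myelocyte stage and hold neutrophilic granule protein (Ngp), the cathelicidin precursor (Camp), whose C-terminal peptide kills bacteria, and lipocalin 2 (Lcn2), which captures bacterial siderophores and is also made by airway epithelium. Transcripts of these granule proteins are largely shut off before the cell leaves the marrow, whereas S100a8 and S100a9, the subunits of the zinc- and calcium-binding complex calprotectin, stay highly expressed in the circulating neutrophil. The members were therefore grouped as 6 granule genes, called immature below, and 2 genes that stay expressed in mature cells, called mature. The names refer to this grouping and not to the cells that gave the signal in lung.

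The promoters of 3 pairs of members are shown because the pairs behave differently in these arrays: Ngp and Camp share a granule but differ in the size of their difference, Elane and Prtn3 are neighbours with differences of opposite sign, and S100a8 and S100a9 were lower by nearly the same amount. All 8 members matched the RefSeq promoter table (GRCm38.p6), and each sequence runs 5′ to 3′ on the gene's own strand from 250 bases before to 50 bases after the annotated start. Capitals mark 3 motifs searched on both strands, where an opposite-strand match appears as its reverse complement: TTGCNNAA, a core bound by C/EBP factors, GAGGAAG, an ETS core of the kind PU.1 binds, and TATAAA, the TATA box. No match overlaps a match of another motif. The intervals are chr9:110419558-110419857, plus strand, for Ngp, chr9:109849407-109849706, minus strand, for Camp, chr10:79886062-79886361, plus strand, for Elane, chr10:79879417-79879716, plus strand, for Prtn3, chr3:90668821-90669120, plus strand, for S100a8 and chr3:90695672-90695971, minus strand, for S100a9.
Ngp: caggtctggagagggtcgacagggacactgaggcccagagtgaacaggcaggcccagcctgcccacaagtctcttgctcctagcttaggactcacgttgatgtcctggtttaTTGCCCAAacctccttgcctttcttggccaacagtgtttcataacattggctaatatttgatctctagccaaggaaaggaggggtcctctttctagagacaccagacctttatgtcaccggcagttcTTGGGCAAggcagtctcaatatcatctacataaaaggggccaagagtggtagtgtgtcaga
Camp: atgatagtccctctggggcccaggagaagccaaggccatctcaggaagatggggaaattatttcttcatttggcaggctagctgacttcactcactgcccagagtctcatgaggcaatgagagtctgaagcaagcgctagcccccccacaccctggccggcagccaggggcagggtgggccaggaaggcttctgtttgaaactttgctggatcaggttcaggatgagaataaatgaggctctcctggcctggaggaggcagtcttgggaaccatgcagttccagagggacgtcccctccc
Elane: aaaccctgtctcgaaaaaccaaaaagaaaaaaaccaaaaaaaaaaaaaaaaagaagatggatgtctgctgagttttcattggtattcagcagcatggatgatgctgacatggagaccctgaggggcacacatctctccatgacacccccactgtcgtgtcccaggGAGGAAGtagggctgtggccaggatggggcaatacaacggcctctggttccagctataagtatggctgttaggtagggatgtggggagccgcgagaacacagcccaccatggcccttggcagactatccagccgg
Prtn3: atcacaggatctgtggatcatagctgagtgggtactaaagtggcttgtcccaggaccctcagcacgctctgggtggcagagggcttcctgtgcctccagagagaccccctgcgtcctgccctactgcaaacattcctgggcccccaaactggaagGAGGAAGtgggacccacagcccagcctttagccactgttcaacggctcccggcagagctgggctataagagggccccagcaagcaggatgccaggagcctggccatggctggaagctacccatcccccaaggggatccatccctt
S100a8: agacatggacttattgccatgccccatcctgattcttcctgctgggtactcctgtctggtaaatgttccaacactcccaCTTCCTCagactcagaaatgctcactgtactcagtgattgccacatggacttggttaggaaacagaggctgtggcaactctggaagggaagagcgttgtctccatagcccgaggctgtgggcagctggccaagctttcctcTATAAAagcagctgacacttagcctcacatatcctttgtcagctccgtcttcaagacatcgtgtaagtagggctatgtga
S100a9: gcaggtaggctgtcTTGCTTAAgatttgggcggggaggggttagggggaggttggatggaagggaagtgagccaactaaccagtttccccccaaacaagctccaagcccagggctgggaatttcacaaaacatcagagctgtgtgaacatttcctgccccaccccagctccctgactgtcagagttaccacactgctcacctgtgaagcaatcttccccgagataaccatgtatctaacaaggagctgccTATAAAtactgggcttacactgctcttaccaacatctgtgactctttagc

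The Ngp promoter holds TTGCNNAA at 138 bases before the start and, on the opposite strand, at 11 bases before it, and the Camp promoter holds none of the 3 motifs. Across 32851 promoters of the same length, 10.8% hold TTGCNNAA, and among the members it was found in Ngp, Lcn2 and S100a9. GAGGAAG lies 85 bases before the start of Elane and 95 bases before that of Prtn3, and Mpo holds it at 247 and 224 bases before its start. This motif is in 13.6% of all promoters and in 5 of the 8 members, the other two being Lcn2 and S100a8. TATAAA, in 13.6% of all promoters, was found in S100a8 at 30 bases before the start and in S100a9 at the annotated start itself, and in no other member. Only these exact letters were searched, and the near match TATAAG in the Elane and Prtn3 promoters was not counted. A match is a description of the letters and not a binding site. The motifs were chosen after the promoters had been read.

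Ngp had the largest difference of the 8 members. It read 8.28 in the irradiated array and 6.28 in the nonirradiated array on the log2 scale, a 4.01-fold higher value as measured. Its nonirradiated reading lay below the median intron control row of that array, 6.33, so the size of the fold is uncertain. Its transcript cluster (17522369, chromosome 9, 110419750 to 110423012, plus strand, GRCm38) has 19 probes, and like those of the other 7 members it is not annotated as cross-hybridising. Ngp was below the nonirradiated array's median over genes of 7.27 and above the irradiated array's median of 7.26.

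The other specific granule genes differed less. Camp (chromosome 9, 109847375 to 109849456, minus strand) read 6.16 in the irradiated array and 5.59 in the nonirradiated array, a difference of 0.57 on the log2 scale or 1.49-fold. Lcn2 (chromosome 2, 32384633 to 32387797, minus strand) read 10.94 in the irradiated array and 10.98 in the nonirradiated array, a difference of -0.04. Camp was dim in both arrays and Lcn2 was bright in both, bright meaning at or above the array's median over genes. Camp and Ngp lie on the same chromosome, 570293 bases apart, and the gap between their differences was 1.43 on the log2 scale.

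Among the azurophil genes, Elane and Mpo differed alike and Prtn3 did not follow. Elane (chromosome 10, 79886312 to 79888216, plus strand) read 6.87 in the irradiated array and 6.46 in the nonirradiated array, a difference of 0.41. Mpo (chromosome 11, 87793581 to 87804413, plus strand) read 6.59 in the irradiated array and 6.19 in the nonirradiated array, also a difference of 0.41. Both were dim in both arrays. Prtn3 (chromosome 10, 79874476 to 79883174, plus strand) read 7.39 in the irradiated array and 7.52 in the nonirradiated array, a difference of -0.13, and was bright in both. Prtn3 ends 3137 bases before Elane begins. The Prtn3 cluster, however, starts 5191 bases upstream of the RefSeq start of the gene, and the files do not give the positions of its 17 probes.

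Both calprotectin genes were lower. S100a8 (chromosome 3, 90669071 to 90670034, plus strand) read 8.63 in the irradiated array and 9.16 in the nonirradiated array, a difference of -0.53 or 1.45-fold. S100a9 (chromosome 3, 90692632 to 90695721, minus strand) read 7.23 in the irradiated array and 7.74 in the nonirradiated array, a difference of -0.51 or 1.42-fold. The differences of the 2 subunits lay 0.02 apart on the log2 scale. They ranked 349 and 419 from the lowest of 19105 genes. In whole lung RNA, fewer cells that carry these transcripts and less of the transcripts per cell cannot be told apart. Which cells gave the signal was not tested.

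**Figure D1:**
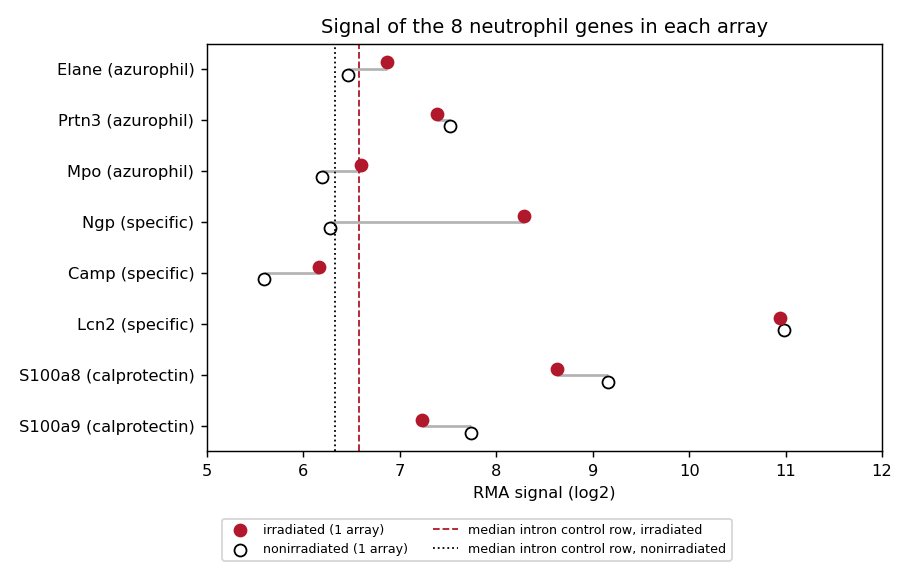
RMA signal (log2, x axis) of the 8 members (rows, with their granule or complex) in the irradiated array (filled) and the nonirradiated array (open), 1 array each, with the median intron control row of each array as a vertical line. Ngp lies at 8.28 in the irradiated and 6.28 in the nonirradiated array, Elane, Mpo and Camp lie near the lines at 6.58 and 6.33, and both calprotectin genes lie further left in the irradiated array.

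At the 1.5-fold limit, 1 of the 8 members, Ngp, was higher in the irradiated array and none was lower. Over all genes with a single symbol, 2.07% were higher by that much and 1.20% were lower. Camp, at 1.49-fold, S100a8 at 1.45-fold and S100a9 at 1.42-fold fell just short of the limit. At 2-fold, Ngp was again the 1 member called, against 0.335% of all genes higher and 0.0785% lower. A limit on dim genes left 5 of the 8 members, Ngp only through the irradiated array and S100a9 only through the nonirradiated one, so that neither could have differed the other way. Of all bright genes, 1.78% were higher and 1.02% lower at 1.5-fold, that is 175 and 100 genes, or 205 and 67 with the trend of the difference on signal removed.

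The contrast between immature and mature genes was a median difference of 0.41 over the 6 granule genes, of which irradiated lung had the higher value for 4 and the lower for 2, and of -0.52 over the 2 calprotectin genes. The gap between these medians was 0.93 on the log2 scale. The granule genes ranged from -0.13 for Prtn3 to 2.0 for Ngp, so they did not share a direction. With each member left out in turn the gap ran from 0.91 to 0.94. The granule median then stayed at or between Elane and Mpo, so a wide range could not have arisen. Both of those genes were dim. The 3 bright granule genes, Ngp, Lcn2 and Prtn3, differed by 2.0, -0.04 and -0.13. Over all genes the median difference was -0.02, with 45.3% of genes higher and 53.1% lower.

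**Figure D2:**
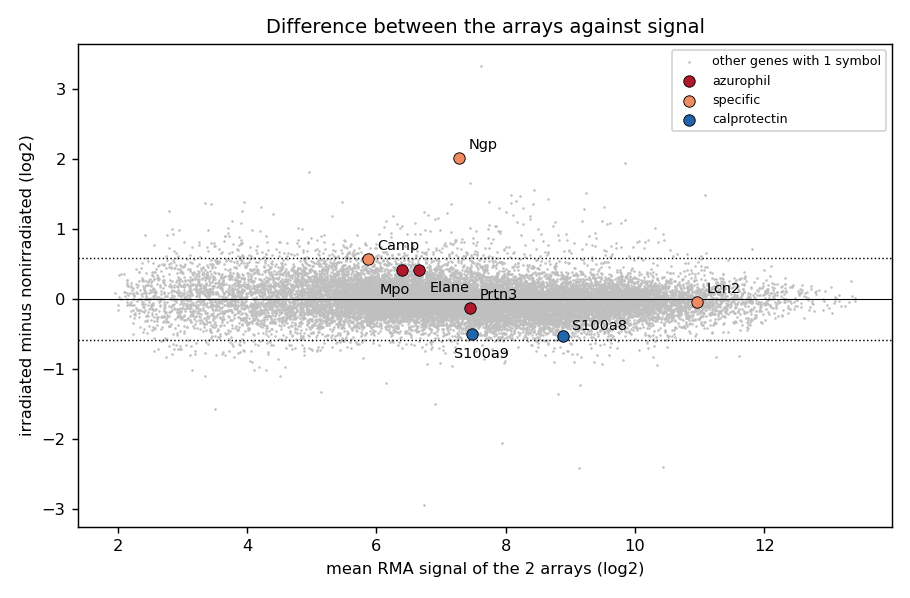
Difference between the irradiated and nonirradiated arrays (log2, y axis) against the mean signal of both arrays (log2, x axis) for all genes with a single symbol (grey) and the 8 members (coloured by granule or complex). Dotted lines mark 1.5-fold. Ngp lies at 2.0, far above the cloud, while the other 7 members lie between the lines.

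The array carries rows for introns of normalisation genes, which show how bright unspliced or background signal can be. The 5331 intron control rows had a median of 6.58 in the irradiated array and 6.33 in the nonirradiated array. Their median difference was 0.27, and the middle 95% of them ran from -0.82 to 1.41. Elane exceeded 57.9% of these rows in the irradiated array and 53.6% in the nonirradiated array. Mpo exceeded 50.4% in the irradiated and 46.2% in the nonirradiated array, and Camp 38.8% and 31.6%. These 3 granule genes thus stood within the signal of intron rows in both arrays. Ngp exceeded 89.2% of intron rows in the irradiated array and 48.7% in the nonirradiated array, so that it stood above most intron rows in irradiated lung and in their middle in nonirradiated lung. S100a8 exceeded 93.0% in the irradiated and 98.4% in the nonirradiated array, S100a9 67.3% and 85.7%, Prtn3 71.5% and 81.5%, and Lcn2 99.8% and 99.9%.

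Each member was also set beside features whose mean signal lay within 0.5 of its own on the log2 scale. Of 3519 such genes, 5.14% were higher by at least as much as Elane, and of 1474 intron rows 37.4% were. For Mpo the shares were 5.05% of genes and 35.6% of intron rows, and for Camp 2.57% and 27.2%. The differences of Elane, Mpo and Camp were therefore common among intron rows of like signal. For Ngp the shares were 0.0636% of 3146 genes, itself included, and 0.0758% of 1319 intron rows. S100a8 was matched or exceeded in the lower direction by 2.15% of 2842 genes and by 0.946% of 317 intron rows, and S100a9 by 2.30% of 3047 genes and 2.27% of 1191 intron rows. When the differences were taken relative to the median intron row, Elane stood at 0.13, Mpo at 0.13, Camp at 0.30 and Ngp at 1.73. On that scale Prtn3 stood at -0.40, Lcn2 at -0.31, S100a8 at -0.80 and S100a9 at -0.78. The part of the intron signal in the differences of the dim genes was not tested.

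**Figure D3:**
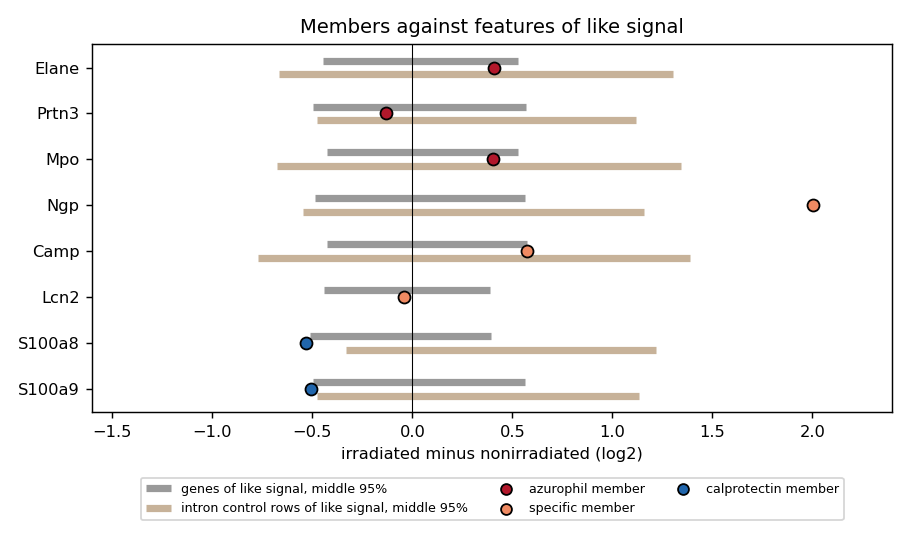
Difference of each member (point, irradiated minus nonirradiated, log2) with the middle 95% of genes (grey bar) and of intron control rows (tan bar) whose mean signal lies within 0.5 of the member's; Lcn2 has no tan bar because only 16 intron rows are that bright. Ngp lies beyond both bars, S100a8 and S100a9 just below the lower ends of the grey bars and below the tan bars, and Elane, Mpo and Camp inside the tan bars.

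Other genes of the same granules gave a mixed picture. Of 5 further azurophil genes with a symbol, 2 had the higher value in irradiated lung and 3 the lower, with a median of -0.19. None of them reached 1.5-fold. Over all genes, 2.07% were higher and 1.20% lower by that much. Cathepsin G (Ctsg), the third classical serine protease of this granule, read 6.14 in the irradiated array and 5.75 in the nonirradiated array, and Ms4a3, a membrane protein of granulocyte precursors, read 5.89 and 5.52. The differences of 0.39 and 0.37 were close to those of Elane and Mpo. Ctsg and Ms4a3 were dimmer than Elane and Mpo in both arrays. They read below the median intron control row, 6.58 in the irradiated and 6.33 in the nonirradiated array. Lyz2, lysozyme, and Cd63, a granule membrane tetraspanin, which macrophages and other lung cells also express, differed by -0.21 and -0.40. Of 9 further specific granule genes, 4 were higher and 5 lower, with a median of -0.01. Ltf, lactoferrin, the iron-binding protein of this granule and also a secretory product of airway epithelium, read 8.19 in the irradiated array and 7.75 in the nonirradiated array. Cd177, a surface glycoprotein of neutrophils, differed by -0.44 and Chi3l3, a chitinase-like protein that alveolar macrophages make as well, by -0.55. None of these neared the 2.0 of Ngp.

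Gelatinase granules are filled last, and of 7 such genes 2 were higher and 5 lower, with a median difference of -0.20. Adam8, a membrane protease, was 1.51-fold lower. Its log2 difference was -0.57 after median centring and -0.52 with the signal trend removed, both short of 1.5-fold. Mmp9, gelatinase B, differed by -0.34 and Mmp8, neutrophil collagenase, by 0.11. Of 15 listed regulators of granulocyte formation 10 were matched, of which 6 were higher, 4 lower and none reached 1.5-fold. That limit was passed upward by 2.07% of all genes and downward by 1.20%, so none of 10 is an unremarkable count. Cebpe, the factor that switches on specific granule genes, read 6.58 in the irradiated array and 6.38 in the nonirradiated array, and Gfi1, a repressor needed for neutrophil formation, 6.66 and 6.59, both dim. Cebpa, which alveolar epithelium and macrophages also express, differed by -0.46.

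The lower values of S100a8 and S100a9 were not shared by most other genes of mature neutrophils. Of 25 such genes besides the pair, 13 were higher, 11 lower and 1 was equal in both arrays, with a median of 0.03. Fcgr4, an activating receptor for antibody that monocytes also carry, was 1.52-fold higher, at 8.84 in the irradiated array and 8.23 in the nonirradiated array. Cxcr2, the receptor for neutrophil-attracting chemokines, differed by 0.18, and Fpr2, a formyl peptide receptor, by 0.15. Clec4d, a C-type lectin, differed by -0.54, close to the calprotectin genes, Csf3r, the receptor of the neutrophil growth factor G-CSF, by -0.31, and Retnlg, a resistin-like protein of neutrophils, by -0.13. Ly6g, the marker used to sort mouse neutrophils, was dim in both arrays and differed by 0.37. The signals of the 27 matched genes, summed on the linear scale, came to 13.41 in the irradiated array and 13.43 in the nonirradiated array in log2 units.

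Within the S100 family, a set of small calcium-binding proteins, 13 of 16 genes were lower in the irradiated array, with a median of -0.24, and without the calprotectin pair 11 of 14 were lower, with a median of -0.16. S100a6, which many epithelial and stromal cells express, was 1.78-fold lower, at 9.87 in the irradiated array and 10.70 in the nonirradiated array. S100g differed by -0.50 and S100a13 by -0.44. Of the 16 genes, S100a6 alone thus had a lower difference than the calprotectin genes.

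Genes that act on the granule proteins or receive them mostly stayed within 1.5-fold, as most genes did. Over all genes, 2.07% were higher and 1.20% lower by that much. Of 10 genes for granule protein handling 9 were lower and none reached 1.5-fold, with a median of -0.13. Ctsc, cathepsin C, which activates the serine proteases Elane and Prtn3, differed by -0.12, and Srgn, serglycin, the proteoglycan that packs them, by 0.17. Of 12 protease inhibitors 7 were higher and 4 lower, with Wfdc2 at -0.42 and Slpi, an inhibitor of elastase secreted by airway epithelium, at -0.23. The 6 subunits and partners of the NADPH oxidase, which supplies peroxide to Mpo, had a median of 0.01, with its membrane subunit Cybb at 0.36. Of 11 receptors or co-receptors of these proteins 9 were lower, among them Ager, which binds S100 proteins, at -0.28, and Ly96, the partner of TLR4, at -0.37. Lrp2, megalin, an uptake receptor for lipocalin 2, was 1.56-fold lower, and the lipocalin receptor Slc22a17 differed by -0.15.

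Signals that recruit neutrophils had a median of 0.06 over 20 genes, 11 higher and 9 lower. Ppbp, a CXCR2 ligand stored in platelets, was 1.63-fold higher, and Cxcl3, another such ligand, read 3.60 in the irradiated array and 4.61 in the nonirradiated array, both below the median antigenomic background row of that array, 4.59 and 4.77, so no fold is given. Cxcl1 and Cxcl2 were dim and differed by -0.15 and 0.12, and Cxcl15, the lung chemokine that the file lists as Il8, differed by -0.06. Icam1, to which neutrophils adhere, differed by -0.36.

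**Figure D4:**
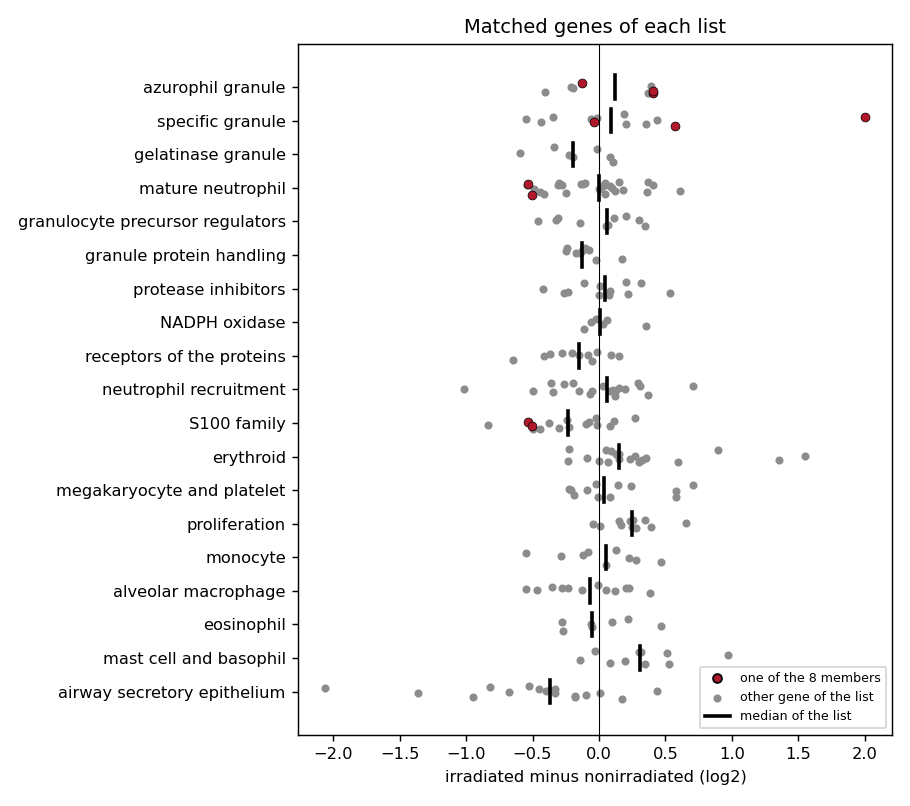
Difference between the irradiated and nonirradiated arrays (log2, x axis) for the matched genes of 19 lists (rows), with the 8 members in red and the median of each list as a black bar. Ngp lies alone at 2.0 among the specific granule genes, erythroid genes extend to 1.55, and airway secretory genes to -2.06.

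Markers of other marrow-derived and lung cells also differed between these arrays. Of 19 erythroid genes, 9 of them bright, 16 were higher, with a median of 0.15, and 4 of 19 reached 1.5-fold. Across all genes, 45.3% were higher and 2.07% were higher by at least 1.5-fold. The 4 erythroid genes include Ahsp, the alpha haemoglobin chaperone, at 2.93-fold and Slc4a1, the anion exchanger, at 1.51-fold. Rhag, another of them, read 5.60 in the irradiated array and 4.70 in the nonirradiated array, the second below the median antigenomic background row of 4.77. The summed erythroid signal was 13.57 in the irradiated array and 13.42 in the nonirradiated array, in log2 units. The defining erythroid regulators Gata1 and Klf1 were dim and differed by 0.07 and 0.15. Of 11 proliferation genes 10 were higher, with a median of 0.25, and Tyms was 1.58-fold higher on a cluster annotated as cross-hybridising. The 12 megakaryocyte and platelet genes had a median of 0.04 and a summed signal of 13.04 in the irradiated array and 12.59 in the nonirradiated array. Ppbp alone carried much of that sum, which without it was 11.89 in the irradiated array and 11.70 in the nonirradiated array. Of 10 mast cell and basophil genes 8 were higher, with a median of 0.31, and Cpa3, a mast cell carboxypeptidase, was 1.96-fold higher. Only 3 of these 10 genes were bright, and the intron control rows themselves had a median difference of 0.27. The 7 eosinophil genes had a median of -0.05 and Epx, the eosinophil relative of Mpo, was dim and differed by -0.27. The part of these cells in the difference of Ngp was not tested.

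Lcn2, which airway cells also express, was set beside the airway secretory genes. Of these 17 genes 14 were lower, 5 of 17 at least 1.5-fold, with a median of -0.37. Across all genes, 53.1% were lower and 1.20% were lower by at least 1.5-fold. Clca3 was 4.16-fold lower, Tff2 2.57-fold, Muc5b 1.93-fold, Bpifb1 1.76-fold and Muc5ac 1.60-fold. The summed signal was 15.32 in the irradiated array and 15.53 in the nonirradiated array, while Lcn2 differed by -0.04. The median difference was -0.07 for 12 alveolar macrophage genes and 0.05 for 9 monocyte genes.

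By size of difference alone, the bright genes nearest to Ngp over the 2 arrays were Nppa, the atrial natriuretic peptide, at 1.93, Cidea, which coats lipid droplets in brown adipocytes, at 1.65, and Ahsp at 1.55. The genes nearest to S100a9 were AU021092, Ociad2 and Klhdc9, each at -0.51. With 2 arrays this likeness is only a like difference.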

How the data were processed

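Total RNA from lung was hybridised to 1 array for each group. The authors deposited RMA signals in log2 units, which the submitters' processing notes credit to Affymetrix Expression Console 1.3.1. RMA normally aligns arrays to a common distribution, which hides any general shift and compresses dim signals. The ratio and absolute fold that the authors deposited were not used, and the series value table holds the same signals. The table has 41345 rows. Left out were 6980 array controls, rows with no or several symbols and 18 rows whose symbol had turned into a date. The other 20321 rows were averaged per symbol to 19105 genes, of which 9840 were bright.

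Differences are irradiated minus nonirradiated. The members and the 19 lists were chosen with earlier results of these data known. Of 269 list entries, 234 matched a symbol, 2 a RefSeq synonym, and 33 were not matched and not analysed here. The genes to be named were the 8 members, up to 4 bright genes with the largest absolute difference per list, any listed gene past 1.5-fold, and the 3 genes nearest to Ngp and to S100a9. Scgb1a1, Ctsg, Ms4a3, Cebpe, Gfi1, Ly6g, Cxcr2, Fpr2, Retnlg, Ctsc, Slc22a17, Cxcl1, Cxcl2, Cxcl15, S100a13, Gata1, Klf1, Epx and the genes beside the members fall outside this rule and were picked with their values in view. A few listed genes are not reported here. With 1 array a group, no p-value could be had, and the number of arrays limits the precision. Alternatives tried were centring on the median difference, subtracting a lowess trend (span 0.3), other rules for rows and brightness, and the intron control rows as zero. Python 3.11.15, pandas 2.3.3 and statsmodels 0.14.6 were used, and the trend removal was tested on simulated data.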

Additional observations from a re-analysis of the deposited data

How the results depend on the processing

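Changes in the limit on dim genes move the counts because more or fewer genes are tested. Without a limit on dim genes, 395 genes were higher and 230 lower at 1.5-fold, and with the limit at the 75th percentile of each array 80 were higher and 54 lower, against 175 and 100 in the bright genes. That stricter limit left out Ngp, so that 0 members were called, against 1. Removing the signal trend gave 205 higher and 67 lower genes, and the cause was not tested. Adam8 fell short of 1.5-fold with median centring and with the trend removed. The gap between immature granule and mature neutrophil genes ran from 0.87 to 1.06 over 16 alternatives, many of which could hardly move it. Median centring shifts both medians alike, and the row rules and the series value table change no member. Leaving out 1 member kept the granule median at or between Elane and Mpo. No limit on dim genes was applied to the gap. The gap was not taken over the wider lists either. Without the members, their median differences were -0.19 for azurophil granule, -0.01 for specific granule and 0.03 for mature neutrophil genes. Every member moved by less than 0.28, the spread of differences between rows of the same bright gene, under the alternatives run, and the rules for several rows changed none of the 8, since each has 1 row. Setting the intron rows to zero was added after the data had been seen. It lowers every difference by the same 0.27, so for this alternative a move below 0.28 was fixed. S100a8 at -0.80 and S100a9 at -0.78 then passed 1.5-fold in the lower direction, and Ngp at 1.73 still passed it in the higher. No paired analysis was possible because each group has 1 array, and no replicate could be left out. No detection call was used, so signal near the intron rows limits what can be said of Elane, Mpo and Camp, and of the size of the difference of Ngp, whose nonirradiated value lay among those rows.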

Other observations

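Of the measured genes nearest to each member, Cfd alone differed by over 1.5-fold. Next to Mpo, Lpo, which encodes the related lactoperoxidase and begins 2014 bases after Mpo ends, read 6.69 in the irradiated array and 6.78 in the nonirradiated array. Ngp lies between Ptpn23 and Klhl18, which differed by -0.27 and 0.20, and Camp between Nme6 and Cdc25a, at -0.08 and -0.04. Elane is followed after 2636 bases by Cfd, the complement factor D that adipocytes secrete, which read 8.20 in the irradiated array and 7.53 in the nonirradiated array, a difference of 0.67. S100a7a, the nearest measured gene before S100a8, differed by 0.08.

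In the expression notes of the deposited annotation, bone marrow is listed as a source tissue for 8 of the 8 members and for 45.0% of the 16198 genes that carry such notes, and lung for 6 of the 8 and for 55.0%. Elane and Camp are the members without lung.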
